A study of Mus musculus with 6 samples.

Results

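Bapx1 (Nkx3-2) peaks of NIH3T3 cells, a mouse fibroblast line, were examined where they lay at the start of a gene. From the peaks that the authors had called with MACS in V5-tagged Bapx1 cells against a V5 control, those were chosen whose summit lay within 1000 bp of the nearest transcription start site (TSS) of a protein-coding transcript on an autosome of mm9. Of 23207 deposited peaks, 22956 lay on autosomes outside Nkx3-2, where 2 peaks were left out because the gene was itself overexpressed, and 1891 of these (8.24%) met the rule. They were nearest to 1747 genes, of which 1614 had 1 such peak, 123 had 2 and 10 had 3 or more. Since the peaks were selected on NIH3T3 tags over V5 tags, the enrichment in these cells is described and not tested.

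The NIH3T3 library was made with a V5 antibody from cells overexpressing V5-tagged Bapx1. Its control was pulled down with the same antibody, and the labels describe the control cells both as wild type and as carrying the empty pcDNA6 vector. The embryo library, which had no part in the choice of the peaks, was made with an anti S-Peptide antibody from vertebral columns of CD1 embryos at E12.5, in which the endogenous Bapx1 protein carries an S-peptide and a calmodulin binding peptide tag. Its control was the same antibody on wild type CD1 vertebral column. By the study's methods the vertebral columns of many embryos were pooled for each library, so cells of every type in the dissected tissue contribute. All 4 libraries were amplified for 14 cycles.

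Bapx1 is a homeodomain transcription factor of the NK class that is required for the axial skeleton and the spleen. In the sclerotome it acts downstream of hedgehog signals and promotes cartilage formation, largely as a repressor. NK homeodomains recognise a short core, and for Bapx1 the study names TGAGTG or TAAGTG. Many promoters of widely expressed genes lie in CpG islands, which are rich in G and C and tend to be open in most cell types, whereas TAAGTG is rich in A and T.

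With 1 library per condition no spread between cultures or embryos could be measured, so the tests on tags below compare libraries and not conditions, and the tests on sequence or annotation compare sets of peaks or TSS, which are not replicates. In the NIH3T3 libraries 2.36% (Bapx1) and 6.53% (V5) of the autosomal tags repeated a position and strand, and in the embryo libraries as deposited none did. After keeping 1 tag per position and strand, the libraries held 8667435 (NIH3T3 Bapx1), 12134834 (V5), 23980892 (embryo Bapx1) and 19933017 (wildtype) autosomal tags, to which all ratios are scaled. Intervals are exact binomial (Clopper-Pearson) at 95% and, like the tests on pooled tags, cover counting error only. At a peak the tags were counted within 250 bp of the summit, where the median was 14 tags for NIH3T3 Bapx1, 3 for V5, 11 for embryo Bapx1 and 7 for wildtype, so the ratio of a single peak is coarse.

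The windows below show the Bapx1 core in the NIH3T3 peaks with the smallest authors' p that contained it, and in Cdca3, which was also high in the embryo. Each spans 50 bp on either side of the summit and is written 5′ to 3′ on the strand of the gene, with the core in capitals. CACTCA and CACTTA are TGAGTG and TAAGTG read from the opposite strand. The summits of Trem2, Twf1, Trappc6b, Clmn and Gtse1 lay in introns, those of Tmem123 and AK129341 upstream of the gene, and that of Cdca3 in an untranslated exon.
Trem2, chr17:48486204-48486304, plus strand: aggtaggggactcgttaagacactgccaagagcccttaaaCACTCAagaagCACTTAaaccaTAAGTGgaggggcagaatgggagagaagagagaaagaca
Twf1, chr15:94419417-94419517, minus strand: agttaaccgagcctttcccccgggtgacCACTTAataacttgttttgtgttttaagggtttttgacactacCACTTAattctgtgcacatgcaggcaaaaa
Trappc6b, chr12:60161607-60161707, minus strand: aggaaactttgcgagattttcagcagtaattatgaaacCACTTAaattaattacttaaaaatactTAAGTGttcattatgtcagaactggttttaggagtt
Clmn, chr12:106042464-106042564, minus strand: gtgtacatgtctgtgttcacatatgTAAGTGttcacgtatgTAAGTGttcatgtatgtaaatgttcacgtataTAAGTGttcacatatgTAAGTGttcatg
Gtse1, chr15:85690698-85690798, plus strand: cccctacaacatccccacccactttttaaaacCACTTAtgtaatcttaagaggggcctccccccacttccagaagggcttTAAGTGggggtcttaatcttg
Tmem123, chr9:7763751-7763851, plus strand: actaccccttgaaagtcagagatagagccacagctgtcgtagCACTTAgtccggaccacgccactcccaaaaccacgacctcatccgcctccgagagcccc
AK129341, chr9:8135088-8135188, minus strand: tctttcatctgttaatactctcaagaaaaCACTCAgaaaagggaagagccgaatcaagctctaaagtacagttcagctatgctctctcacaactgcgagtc
Cdca3, chr6:124779583-124779683, plus strand: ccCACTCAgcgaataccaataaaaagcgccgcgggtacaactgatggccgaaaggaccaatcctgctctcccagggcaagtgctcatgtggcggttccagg

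The window of Trem2 held the core 3 times and that of Clmn 4 times, the latter in a short unit repeated in tandem. The window of Cdca3 held 1 TGAGTG and no TAAGTG.

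The windows above were printed because they contain the core, so they do not show how often it occurs. The 3 windows with the most embryo Bapx1 tags among the peaks with an embryo ratio of at least 2 contained neither form of the core. They were chosen after their values were seen and are shown with their CG dinucleotides in capitals, since the CpG content separated the peaks at TSS from the other peaks. All 3 summits lay upstream of the gene.
Tasp1, chr2:139892661-139892761, minus strand: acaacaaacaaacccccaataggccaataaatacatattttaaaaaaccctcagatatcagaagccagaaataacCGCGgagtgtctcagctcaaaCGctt
Yipf4, chr17:74888754-74888854, plus strand: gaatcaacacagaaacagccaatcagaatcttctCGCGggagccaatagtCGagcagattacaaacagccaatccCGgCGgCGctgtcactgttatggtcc
Map3k3, chr11:105945530-105945630, plus strand: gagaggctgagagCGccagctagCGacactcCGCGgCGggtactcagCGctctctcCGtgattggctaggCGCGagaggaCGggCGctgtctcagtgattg

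Around the TSS the summits lay more often upstream than downstream, with 1086 upstream and 805 downstream. The density was 1840 peaks per kb within 100 bp of the TSS and 1790 per kb between 100 and 250 bp upstream, against 700 per kb between 100 and 250 bp downstream. Between 500 and 1000 bp it was 656 per kb upstream and 678 per kb downstream. By the annotation 820 summits (43.4%) lay outside any protein-coding transcript, 748 (39.6%) in an intron, 264 (14%) in an untranslated exon and 59 (3.12%) in a coding exon.

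**Figure D1:**
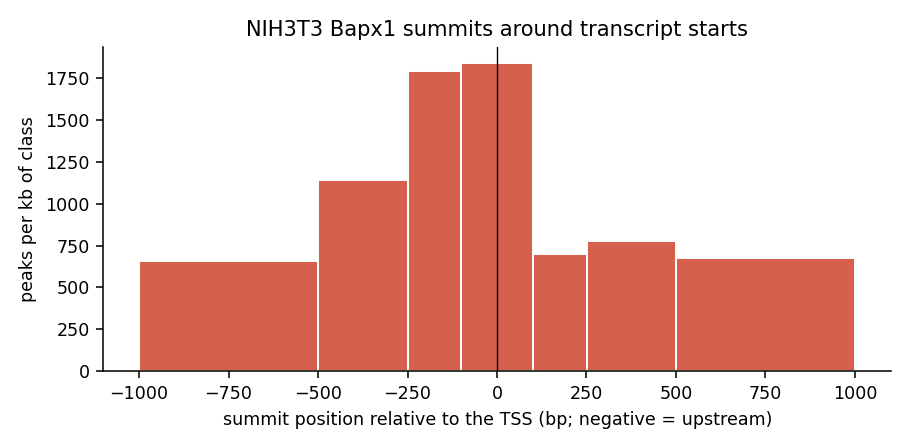
Position of the 1891 summits relative to the nearest TSS (x axis, bp, negative is upstream of the gene), as peaks per kb of each distance class (bars, y axis from 0). The highest bars are those within 100 bp of the TSS (1840 per kb) and between 100 and 250 bp upstream (1790 per kb), and the first class downstream drops to 700 per kb.

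Peaks on both sides of the limit of 1000 bp held between 12 and 24 NIH3T3 Bapx1 tags. Just inside it, the peak of 2310044G17Rik at 1000 bp upstream held 17 NIH3T3 Bapx1 tags and 4 V5 tags, and that of Tatdn2 at 1000 bp downstream 24 and 3. Just outside it, the peak near Zfp592, 1 bp beyond the limit, held 12 and 5, that near Gm5773 at 1005 bp upstream 14 and 5, and that near Cand1 at 1005 bp 13 and 3. Of these 5 peaks, those of Tatdn2, Gm5773 and Cand1 contained the core.

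In NIH3T3 cells the chosen peaks held 28844 Bapx1 tags and 7583 V5 tags, a scaled ratio of 5.33 (5.19 to 5.46), where the other 21065 autosomal peaks stood at 6.39 (6.34 to 6.44). By the authors' values the peaks at TSS were weaker than the others, with a median fold enrichment of 11.3 against 13.6 and a median of 64.9 against 70.7 for 10 times −log10 (p), for which the cutoff of the list was 50. A p of at most 1e-10 was reached by 281 peaks at TSS (14.9%) and by 4695 of the others (22.3%). Every authors' false discovery rate at TSS was at most 5.25%. These values chose the peaks and carry no test.

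The ratio fell to 2.47 when every tag was kept, and 2 peaks on chromosome 2, at the gene models Gm10800 and Gm10801, accounted for the fall. The window at Gm10801 held 8576 V5 tags and 4101 Bapx1 tags, of which 397 and 352 differed in position or strand, and that at Gm10800 held 5587 and 3265, of which 234 and 239 differed. They were also the deepest windows in the embryo, with 480 Bapx1 and 486 wildtype tags at Gm10801 and 330 and 325 at Gm10800. Without them the NIH3T3 ratio was 5.69, and 5.76 with every tag kept. The tag ratios of classes of peaks given below leave out these 2 peaks, and the shares of peaks include them.

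Away from the summit the Bapx1 library of the NIH3T3 cells stayed above V5 near the chosen peaks. From 480 to 500 bp downstream of the summit the level was 13.5 tags per kb per peak and 10000000 autosomal tags for Bapx1 and 5.96 for V5, whereas at the other peaks it was 7.3 and 5. At TSS with no NIH3T3 peak within 1000 bp the scaled ratio of Bapx1 to V5 was 1.29 over 19473 genes, and at those rich in CpG it was 1.48 over 9300. In the embryo the Bapx1 tags rose around the same summits to 12.6 on this scale and the wildtype tags to 8.79 in the 20 bp before the summit, against 6.31 and 5.4 at the other peaks.

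**Figure D2:**
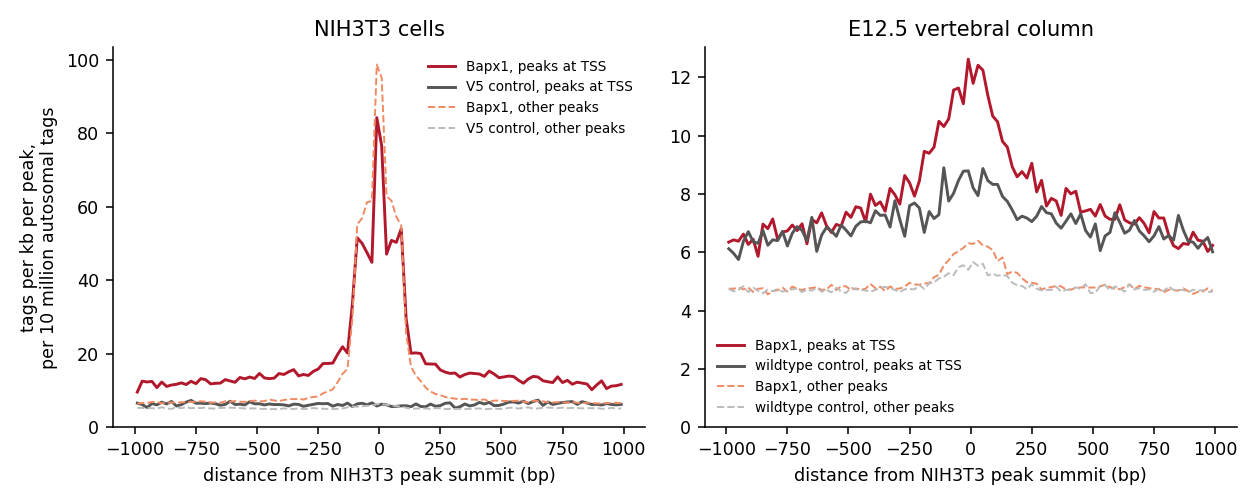
Mean tags per kb per peak and 10000000 autosomal tags (y axes, from 0) by distance from the NIH3T3 summit (x axes, bp, bins of 20 bp) in the NIH3T3 libraries (left) and the embryo libraries (right). Solid lines are 1889 peaks at TSS, dashed lines the other 21065 peaks, in red and orange for Bapx1 and in grey for the controls. At peaks at TSS the embryo Bapx1 line reaches 12.6 beside 8.79 for wildtype in the bin before the summit, and the NIH3T3 Bapx1 line, chosen for its height, stays above V5 out to 1000 bp.

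The 10 peaks with the smallest authors' p included 5 sharp ones in introns. Trem2, a receptor of myeloid cells, held 69 Bapx1 and 7 V5 tags 441 bp downstream of its TSS, a ratio of 13.8 (6.35 to 35.6). In the embryo the same window held 3 Bapx1 and 4 wildtype tags. Twf1, twinfilin, which binds actin monomers, held 71 and 9 tags in NIH3T3 cells, a ratio of 11 (5.5 to 25.1), and 10 and 8 in the embryo. Trappc6b, a subunit of the TRAPP vesicle tethering complex, held 52 and 3 tags, a ratio of 24.3 (7.86 to 121), and 10 and 7 in the embryo. Clmn, calmin, held 31 Bapx1 tags and no V5 tag, at least 14.5-fold higher when the control is set to a floor of 3 tags, with 5 and 2 tags in the embryo. Gtse1, a microtubule-associated protein of the cell cycle, held 36 and 5 tags, a ratio of 10.1 (3.94 to 32.9), and 8 and 5 in the embryo. None of these 5 windows held more than 10 embryo Bapx1 tags, where the median of all peaks at TSS was 11. All 5 contained 2 or more copies of the core, as did 154 of the 1891 peaks (8.14%) and 18.5% of those with a p of at most 1e-10.

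The other 5 of the 10 lay together on chromosome 9, where the V5 library itself was high. In the 1-Mb windows from 7000001 to 9000000 it held 8.49 and 8.35 times the scaled tags of the wildtype embryo library. The peaks there were long, and the windows of C330006D17Rik (72 Bapx1 and 35 V5 tags), Tmem123 (107 and 25), Birc3 (58 and 16), 9230110C19Rik (66 and 14) and AK129341 (71 and 29) had ratios from 2.88 to 6.6. The authors counted between 320 and 628 Bapx1 tags in each of these peaks and between 36 and 72 in each of the other 5, and Tmem123 and AK129341 alone among them contained the core. Leaving them out changed no call.

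The Bapx1 core was present within 50 bp of the summit in 625 of the 1891 peaks at TSS, 33.1% (30.9 to 35.2). Flanks of equal length, centred 500 bp from the summits on both sides, held it in 9.2% (8.3 to 10.2), and the difference was significant (two-sided Fisher's exact test, p = 2.49e-105, 5.82e-105 after Benjamini-Hochberg adjustment over the 7 planned tests). Over the TSS of all 21410 autosomal protein-coding genes, searched on both strands in windows of the same length, the share was 7.13%. The other NIH3T3 peaks held the core in 67% (66.4 to 67.7), so the peaks at TSS had it less often (Fisher's exact test, p = 1.76e-182, adjusted 1.23e-181). A longer core, TGAGTGG or TAAGTGG, was found in 12.4% of the peaks at TSS, 2.22% of the flanks and 25.6% of the other peaks, and with TAAGTG alone the values were 21.5%, 3.62% and 60%.

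The share grew with the distance from the TSS within the chosen peaks as well as beyond them. Within 100 bp of the TSS 80 of 370 peaks contained the core, 21.6% (17.5 to 26.2), and between 500 and 1000 bp 283 of 667 did, 42.4% (38.6 to 46.3), which differed (Fisher's exact test, p = 8.29e-12, adjusted 1.47e-11 over 23 tests between classes). Beyond 25000 bp it reached 70.9%. Peaks at TSS with an authors' p of at most 1e-10 contained it in 48.4% and the rest in 30.4%, a split by a value that chose the peaks and therefore given with no test.

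The gradient lay in 1 form of the core. TAAGTG was present in 8.65% of the peaks within 100 bp of the TSS, 12.6% between 100 and 250 bp, 23.1% between 250 and 500 bp and 32.5% between 500 and 1000 bp, and rose to 64.7% beyond 25000 bp, with 3.34% to 5.1% in the flanks of every class. TGAGTG stayed between 10.7% and 17.7% in all 8 distance classes, with 5.21% to 6.66% in their flanks. Among peaks that contained the core, TAAGTG was present in 65.1% (61.2 to 68.9) at TSS and in 89.5% (89 to 90) elsewhere (Fisher's exact test, p = 6.21e-56, adjusted 3.57e-55). Among all TSS, 5.17% had TGAGTG and 2.09% had TAAGTG within 50 bp.

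**Figure D3:**
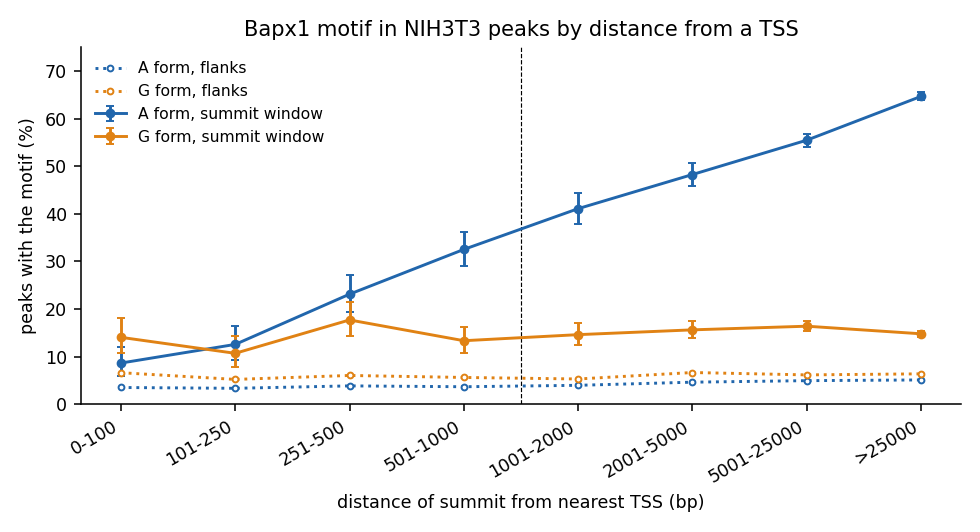
Share of NIH3T3 peaks (y axis, percent) with TAAGTG (A form, blue) or TGAGTG (G form, orange) within 50 bp of the summit, by distance of the summit from the nearest TSS (x axis, bp). Bars are 95% exact binomial intervals, dotted lines are the flanks at 500 bp, and the classes left of the dashed line are the peaks at TSS. The A form rises from 8.65% to 64.7%, and the G form stays between 10.7% and 17.7%.

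Within the 50 bp searched on either side, the core lay close to the summit. The limit of the search by itself keeps these distances small, and its part was not tested. In the 625 peaks at TSS that had it, the median distance from the summit to its centre was 15.5 bp, and 383 (61.3%) had it within 20 bp, against 10.5 bp and 72.1% in the other peaks. Tags on the plus strand had their median 37 bp before the summit and those on the minus strand 37 bp after it in NIH3T3 cells where the core was present, and 36 bp on either side where it was absent. The V5 tags showed an offset of 4 and -11 bp between the strands in the same 2 sets. In the embryo, which did not choose the summits, the offset between the medians was 45 bp with the core and 34 bp without it in the Bapx1 library and 12 bp in both sets in the wildtype library.

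The sequence at the summits was richer in CpG than at the other peaks. The ratio of observed to expected CpG reached 0.6, here called CpG-rich, in 785 of the 1891 peaks (41.5%) but in 206 of the 21065 others (0.978%), and the median GC content was 52.1% against 39.9%. The TSS next to the chosen peaks were CpG-rich in 70% (67.8 to 72.1) against 47.8% (47.1 to 48.5) of the TSS with no peak (Fisher's exact test, p = 1.65e-75, adjusted 1.27e-74). The former were the starts nearest to the summits and the latter the most upstream start of each gene. The part of this choice in the difference was not tested. CpG-rich peaks at TSS contained the core in 24.1% (21.1 to 27.2) and CpG-poor ones in 39.4% (36.5 to 42.4) (Fisher's exact test, p = 2.23e-12, adjusted 4.28e-12). Peaks at TSS had the core less often than other peaks in both classes, with 36.4% of the other CpG-rich peaks (Fisher's exact test, p = 0.000532, adjusted 0.00068) and 67.3% of the other CpG-poor peaks (p = 4.07e-76, adjusted 4.67e-75). A TSS on the opposite strand lay within 1000 bp of 12% of the TSS with a peak and 10.2% of those without (Fisher's exact test, p = 0.018, adjusted 0.0218).

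The embryo libraries address whether Bapx1 at its endogenous level was found at the same places, and more tags lay there in the Bapx1 library than in the wildtype library. At the 1891 peaks the embryo Bapx1 library held 23964 tags and the wildtype library 15640, a scaled ratio of 1.27 (1.25 to 1.3; exact binomial test, p = 3.98e-124, adjusted 1.39e-123). The ratio was 1.3 without the peaks at Gm10800 and Gm10801. The other NIH3T3 peaks had a ratio of 1.08 (1.08 to 1.09), lower than the peaks at TSS (Fisher's exact test on tags, p = 1.03e-48, adjusted 1.03e-48). Of the single peaks, 1220 (64.5%) had more scaled tags in the Bapx1 library than in the wildtype library, against 54.1% of the other peaks. With 1 tag added on both sides, the middle 80% of the peaks at TSS lay between ratios of 0.639 and 2.31 with a median of 1.19.

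The embryo ratio at these TSS was also higher than at other TSS. Counted at the TSS itself, the ratio was 1.26 (1.24 to 1.29) over the 1829 TSS of the chosen peaks and 1.07 (1.06 to 1.08) over the 19473 genes with no NIH3T3 peak (Fisher's exact test, p = 1.46e-55, adjusted 2.56e-55). The TSS of the chosen peaks were the starts nearest to the summits, whereas a gene with no peak was counted at its most upstream start. The part of this choice in the ratio was not tested. The wildtype library was also higher at the TSS of the chosen peaks, with 8.84 tags per TSS against 6.81, and the part of this in the ratio was not tested. Within CpG-rich TSS the ratio was 1.31 (1.28 to 1.34) with a peak and 1.09 (1.08 to 1.1) without (Fisher's exact test, p = 5.07e-48, adjusted 2.33e-47), and within CpG-poor TSS it was 1.16 (1.11 to 1.21) and 1.03 (1.02 to 1.04) (p = 1.13e-07, adjusted 1.62e-07).

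Among the peaks at TSS the embryo ratio differed by the distance and the CpG content, and the difference by the Bapx1 core was small and did not pass the test. It was 1.45 (1.39 to 1.51) within 100 bp of the TSS and 1.14 (1.1 to 1.19) between 500 and 1000 bp (Fisher's exact test, p = 4.01e-16, adjusted 8.39e-16). Upstream of the TSS it was 1.37 (1.33 to 1.41) and downstream 1.2 (1.16 to 1.24) (Fisher's exact test, p = 7.17e-10, adjusted 1.18e-09). CpG-rich peaks had 1.42 (1.37 to 1.46) and CpG-poor ones 1.19 (1.15 to 1.22) (Fisher's exact test, p = 4.95e-17, adjusted 1.14e-16). Of the peaks within 100 bp of the TSS 70% were CpG-rich, and of those between 500 and 1000 bp 14.8%. Between 500 and 1000 bp lay 328 of the 1086 upstream summits and 339 of the 805 downstream ones. Distance, side and CpG content therefore cannot be told apart in these comparisons. Peaks with the core had 1.33 (1.28 to 1.38) and peaks without it 1.28 (1.25 to 1.32) (Fisher's exact test, p = 0.126, adjusted 0.145). Since the core was less frequent in CpG-rich peaks, it was also compared within each CpG class, a comparison added after the pooled values were seen. The ratio was 1.5 (1.41 to 1.59) with the core and 1.39 (1.34 to 1.44) without it in CpG-rich peaks (Fisher's exact test, p = 0.0363, adjusted 0.0725 over these 2 tests). In CpG-poor peaks it was 1.23 (1.17 to 1.29) and 1.16 (1.12 to 1.21) (Fisher's exact test, p = 0.108, adjusted 0.108). The ratio was thus higher with the core in both classes, and neither difference passed the threshold after adjustment. In NIH3T3 cells, by the description above, the ratio was 5.52 (5.3 to 5.75) at CpG-rich and 5.82 (5.62 to 6.02) at CpG-poor peaks.

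**Figure D4:**
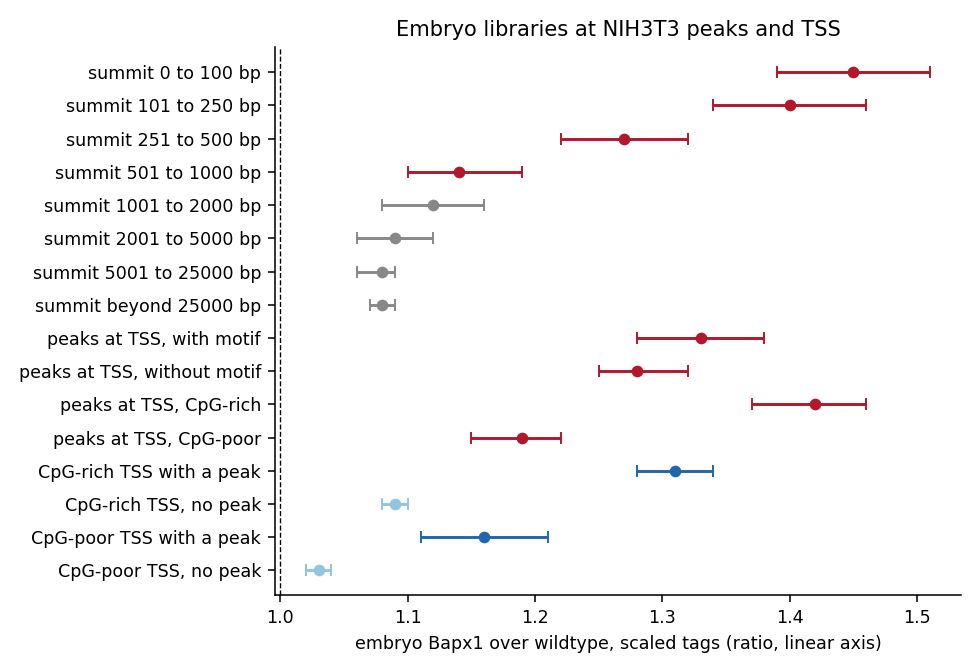
Scaled ratio of embryo Bapx1 to wildtype tags (x axis, linear, dashed line at 1) with 95% exact binomial intervals, for NIH3T3 peaks by distance from the TSS (red within 1000 bp, grey beyond), for classes of the peaks at TSS (red), and for TSS windows with and without a NIH3T3 peak (dark and light blue). The peaks at Gm10800 and Gm10801 are left out. The ratio falls from 1.45 within 100 bp to 1.08 beyond 25000 bp, and TSS with a peak lie above those without in both CpG classes.

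A ratio of at least 2 with 10 or more embryo Bapx1 tags, the wildtype count being raised to 3 where it was lower, was reached by 306 of the 1891 peaks, 16.2% (14.5 to 17.9). Over all 22956 autosomal NIH3T3 peaks the share was 6.51%, and over the TSS windows of all 21409 genes it was 8.64%. In the opposite direction, wildtype over Bapx1, 55 peaks at TSS (2.91%) passed the same limits, against 2.15% of all peaks. Compared with the other peaks, of which 5.64% (5.34 to 5.96) passed, the share at TSS was higher (Fisher's exact test, p = 9.41e-54, adjusted 1.32e-53). Peaks at TSS also held more tags, with medians of 11 against 6 in the embryo Bapx1 library, which makes 10 tags easier to reach. With a minimum of 5 tags the shares were 17.6% and 9.45%. With windows of 100 bp the shares were 8.25% and 1.08%, with windows of 500 bp 9.89% and 7.71%, and with a ratio of 1.5 they were 29.5% and 9.59%.

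Among these 306, the 10 windows with the most embryo Bapx1 tags all overlapped an embryo peak of the authors, and 8 of them lay upstream of the TSS. Tasp1, a protease that processes the MLL chromatin regulators, held 113 Bapx1 and 9 wildtype tags, a ratio of 10.4 (5.31 to 23.4), against 14 Bapx1 and 5 V5 tags in NIH3T3 cells. Yipf4, a membrane protein of the Golgi, held 78 and 5 tags, a ratio of 13 (5.33 to 41), and 14 and 4 in NIH3T3 cells. Map3k3, a kinase upstream of MAP kinase cascades, held 71 and 4 tags, a ratio of 14.8 (5.52 to 55.6), and 26 and 7 in NIH3T3 cells. These are the 3 windows printed above with their CG dinucleotides, in which the core was absent.

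Sptlc2, a subunit of the enzyme that starts sphingolipid synthesis (chr12:88729133-88729721), held 64 Bapx1 and 8 wildtype tags, a ratio of 6.65 (3.18 to 16.1). Bcs1l, a chaperone of respiratory complex III (chr1:74634569-74635154), held 63 and 6 tags, a ratio of 8.73 (3.79 to 24.7). Cdca3, which promotes entry into mitosis, held 57 and 5 tags, a ratio of 9.48 (3.83 to 30.3), with 18 Bapx1 and no V5 tag in NIH3T3 cells. H2afz, a histone variant (chr3:137527182-137527519), held 53 and 8 tags. Khsrp, an RNA-binding protein of splicing and decay (chr17:57171170-57171867), held 51 and 6, and Rsbn1 (chr3:103718017-103718559) held 48 and 16. The tenth, 1700034H14Rik, held 47 and 10. Cdca3 and 1700034H14Rik contained the core and the other 8 did not. Over all 306 the core was present in 96 (31.4%), and peaks at TSS with and without it passed at 15.4% (12.6 to 18.4) and 16.6% (14.6 to 18.8), which did not differ significantly (Fisher's exact test, p = 0.508, adjusted 0.584).

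**Figure D5:**
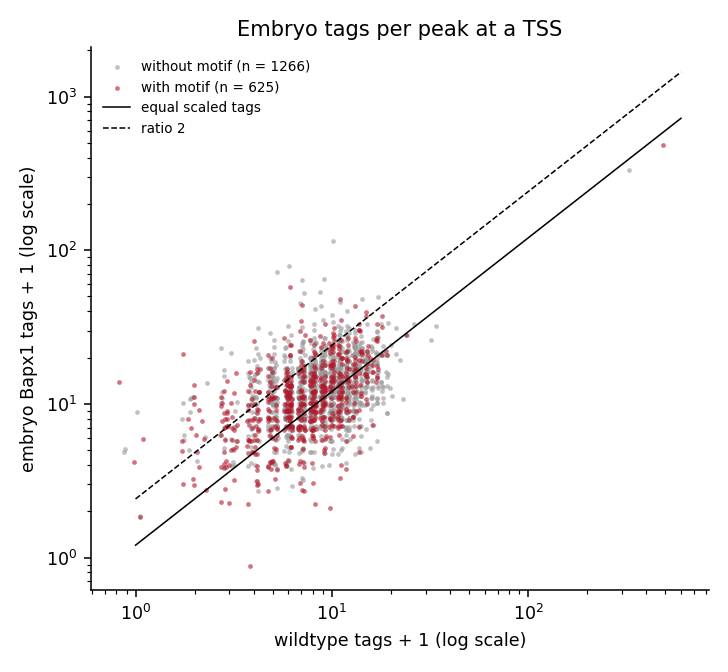
Embryo tags within 250 bp of the summit for each of the 1891 peaks at TSS, wildtype (x axis) against Bapx1 (y axis), both plus 1 on log scales with a small random shift for legibility. Red points contain the core and grey points do not, the solid line marks equal scaled tags and the dashed line a ratio of 2. Most points lie near or above the solid line, Tasp1 with 113 Bapx1 tags is the highest above the dashed line, and the 2 points at the far right are Gm10800 and Gm10801, below the solid line.

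The authors' own embryo Bapx1 peaks overlapped 91 of the peaks at TSS by at least 1 bp, 4.81% (3.89 to 5.88), against 0.784% of all autosomal NIH3T3 peaks and 0.423% (0.339 to 0.52) of those beyond 1000 bp (Fisher's exact test, p = 1.89e-50, adjusted 2.2e-50). The overlap was 1.22% against 0.142% for embryo peaks with a p of at most 1e-10. How often TSS with no NIH3T3 peak overlapped an embryo peak was not counted, so these shares do not set the chosen peaks apart from TSS in general. In these 91 peaks the embryo ratio was 3.11 (2.86 to 3.38), which follows from their being called in that library. In the remaining peaks at TSS it was 1.2 (1.18 to 1.23), still above the 1.07 (1.06 to 1.08) of other peaks without an overlap (Fisher's exact test on tags, p = 8.05e-24, adjusted 2.06e-23). The core was present in 27 of the 91 (29.7%).

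Actin and focal adhesion genes had such a peak most often of the 16 lists of pathways and cell types, followed by cell cycle and matrix genes. A peak at a TSS was nearest to 8.16% of all 21409 autosomal protein-coding genes, to 12.2% of those with a CpG-rich TSS and to 4.07% of those with a CpG-poor TSS. Of 27 actin and focal adhesion genes 8 had a peak (29.6%), of 30 cell cycle and p53 genes 6 (20%), and of 38 matrix genes 7 (18.4%), although only 23.7% of the matrix genes had a CpG-rich TSS. The other lists with a share above that of CpG-rich TSS were corepressors and histone deacetylases with 4 of 23 (17.4%), the respiratory chain with 4 of 23 (17.4%), immediate early and AP-1 genes with 4 of 24 (16.7%) and ribosomal proteins with 8 of 49 (16.3%). None of 23 neural and none of 15 muscle lineage genes had one, counts too small to set apart from the shares of all genes. A CpG-rich TSS was present in 73.9% of the neural and 26.7% of the muscle lineage genes. The counts are small, the lists were not tested, the peaks of a list past a ratio of 2 in the embryo are to be read against 16.2% of all peaks at TSS, and the expression of the genes in these cells was not measured here.

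Among cytoskeletal genes, Actb, cytoplasmic actin, held 20 NIH3T3 Bapx1 and 7 V5 tags, and 14 and 12 tags in the embryo. Cav1, the coat protein of caveolae, held 12 and 3 tags, and Rhoa, a GTPase that controls stress fibres, 16 and 3. Lmna, which encodes the nuclear lamins A and C, had 2 peaks with 11 and 2 and with 14 and 5 tags. None of the 9 peaks of this list passed a ratio of 2 in the embryo, a count too small to set apart from the 16.2% of all peaks at TSS, and their median was 0.997 against 1.25.

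Among matrix genes, Dcn, the proteoglycan decorin, held 12 Bapx1 and 1 V5 tags, a ratio of 16.8 (2.49 to 718). Cyr61, a matrix-associated signalling protein, held 19 and 3 tags, Col6a1, a chain of collagen VI, 17 and 2, and Prelp, a leucine-rich proteoglycan, 11 and 2. Col1a1, a chain of collagen I and a mark of bone and fibroblasts, held 17 and 5 tags in NIH3T3 cells and 18 Bapx1 against 7 wildtype tags in the embryo, a ratio of 2.14 (0.852 to 6.05). It was the only one of the 7 matrix peaks past a ratio of 2.

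Of 30 regulators of cartilage and bone 2 had a peak (6.67%), near the 8.16% of all genes, and 60% of the 30 had a CpG-rich TSS. Atf4, an activator of osteoblast genes, held 29 Bapx1 and 4 V5 tags, a ratio of 10.2 (3.56 to 39.7), with 3 copies of the core. Pax9, which works in the sclerotome, had 2 peaks, with 16 and 2 tags at 391 bp downstream and 11 and 3 at 33 bp upstream of its TSS, and in the embryo 11 against 10 and 17 against 8 tags. Neither gene passed a ratio of 2 in the embryo with 10 tags.

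Signalling genes are given next to the same 8.16%, with 4 of 40 (10%) for Wnt, 2 of 39 (5.13%) for BMP and TGF-beta, 1 of 16 (6.25%) for hedgehog and 1 of 28 (3.57%) for FGF and growth factor receptors. In the same order, 90%, 82.1%, 68.8% and 64.3% of the listed genes had a CpG-rich TSS. All these shares of genes with a peak lay below the 12.2% of genes with a CpG-rich TSS. Tcf7l1, a repressor of Wnt targets, held 19 and 2 tags in NIH3T3 cells and 20 Bapx1 against 4 wildtype tags in the embryo, a ratio of 4.16 (1.39 to 16.7), and contained the core. Gsk3b, a kinase of the Wnt pathway, held 19 and 6 tags, Fzd2, a Wnt receptor, 17 and 5, and Apc, a scaffold that promotes the destruction of beta-catenin, 10 and 3. Both TGF-beta genes passed the ratio of 2 in the embryo, Tgfb3, a ligand, with 17 against 7 tags and Skil, a repressor of SMAD proteins, with 14 against 5, and both intervals included 1. Gli1, a transcription factor and target of hedgehog, held 16 and 4 tags in NIH3T3 cells and 7 against 9 in the embryo. Nrp2, a receptor of semaphorins and VEGF, held 18 and 5 in NIH3T3 cells and 10 Bapx1 against 22 wildtype tags in the embryo, a ratio of 0.378 (0.16 to 0.831).

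The homeobox list had 3 of 25 genes (12%), all of the TALE class, which supplies partners of other homeodomain proteins. Tgif1 had 3 peaks, and the strongest held 18 Bapx1 and 1 V5 tags at 46 bp upstream of a TSS, a ratio of 25.2 (3.98 to 1050). Meis1 had 2 peaks with 12 and 3 and with 13 and 5 tags, and Meis2 had 1 with 13 and 4. In the embryo the 6 peaks had a median ratio of 1.05, and Meis1 had the most Bapx1 tags, 29 against 16. Of the corepressors, Kdm1a, a histone demethylase, held 18 and 5 tags in NIH3T3 cells and passed a ratio of 2 in the embryo with 13 against 5 tags, while Tle4, a Groucho corepressor that NK proteins can recruit, held 10 and 3, Hdac5 10 and 2 and Sin3a 13 and 3.

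Among the immediate early genes, Dusp6, a phosphatase of ERK, held 26 and 2 tags, a ratio of 18.2 (4.56 to 158), and Jun, a subunit of AP-1, had 2 peaks with the core, with 19 and 7 and with 16 and 7 tags, of which the first passed a ratio of 2 in the embryo with 15 against 5. Ier3 held 20 and 9 and Dusp1 19 and 4. Of the cell cycle genes, Cdkn2c and Cdkn1a, inhibitors of cyclin-dependent kinases, held 15 and 4 and 19 and 8 tags, Gadd45a 15 and 6, and Cdk2 13 and 4. In the embryo Cdk4, with 14 against 5 tags, was the only member of that list past a ratio of 2.

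The ribosomal protein list, which stands for open promoters of genes used in every cell, had 8 genes with a median NIH3T3 ratio of 9.1 and a median embryo ratio of 1.02. Rpl28 held 21 Bapx1 and 1 V5 tags, Rpl27 18 and no V5 tag, and Rpl32 22 and 3. None of the 8 passed a ratio of 2 in the embryo, which again is too few to set apart from 16.2%. The respiratory chain list had 4 genes, with 6 peaks. Ndufa4 held 18 and 2 tags in NIH3T3 cells and 11 against 5 in the embryo. The stronger of 2 peaks at Atp5j held 14 and 1 tags and 6 against 5 in the embryo. Ndufa9 held 19 and 6 and 7 against 7. Of 30 genes of translation, splicing and the proteasome 3 had a peak (10%), namely Psmd4, Psmc4 and Eif4e, and the cap-binding factor Eif4e passed a ratio of 2 in the embryo with 16 against 6 tags.

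The genes that changed in the vertebral column of Bapx1 null embryos, a list that the study drew from its expression arrays at over 1.5-fold, had such a peak about as often as all genes. Of the 384 increased genes listed 329 matched an autosomal gene of the annotation and 28 had a peak at a TSS (8.51%), next to the 8.16% of all genes, and of the 21 decreased genes listed 19 matched and none did. Sgk1, a kinase induced by serum and glucocorticoids, had 2 peaks, and one of them had the smallest authors' p of the 28 genes, with 35 Bapx1 and 3 V5 tags in NIH3T3 cells, a ratio of 16.3 (5.15 to 83), and 15 against 5 tags in the embryo, a ratio of 2.49 (0.862 to 8.77). The other peak of Sgk1 held 17 and 5 tags in NIH3T3 cells. In the embryo it held 3 against 9, a ratio of 0.277 (0.0482 to 1.11). Ifi27l1 held 23 and 3 tags, Fez1 12 and 2 and the stronger of 2 peaks at Akr1b8 15 and 1, and in the embryo they held 6 against 4, 8 against 12 and 9 against 5. Of the 33 peaks at these genes 7 passed a ratio of 2 in the embryo, next to 16.2% of all peaks at TSS. None of the 7 regions that the study tested by reporter assay overlapped a peak at a TSS.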

How the data were processed

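The authors aligned 35-bp tags uniquely to mm9 with the Illumina pipeline and called peaks with MACS at a p cutoff of 1e-05. They deposited tag positions, without normalization, and per peak the count of tags, a score (−log10 of the p-value, multiplied by 10), a fold or ratio over the local control, and a percent false discovery rate. Here tags were recounted from the positions, 1 per position and strand, and scaled to autosomal tags. Transcript starts came from the GENCODE annotation of mm9 and sequence from the same assembly. Only starts of protein-coding transcripts were used. A chosen peak was assigned the start nearest to its summit, and the TSS of all genes and of genes with no peak were the most upstream start of each gene. RefSeq names served to match synonyms. Python 3.11.15 with scipy 1.17.1 gave the exact binomial and Fisher's tests (two-sided, threshold 0.05), adjusted by Benjamini-Hochberg within 7 planned tests within 23 tests between classes and within 2 tests of the core by CpG class. Searches and calls were tested on simulated data. Embryo counts were simulated as Poisson counts around the wildtype count of each peak at TSS plus 1. Of 1691 regions not raised, 4.02% passed the limits of a call. The simulated counts vary by counting error only, so they do not give the rate of false calls between the 2 libraries. Of 200 regions raised 4-fold, 97.5% passed. The peaks, the lists and the tests were chosen with earlier results of these data known. Genes are named by rule: the 10 peaks with the smallest p, the 10 with the most embryo tags past a ratio of 2, up to 4 per list, and the 3 on either side of the limit. Some genes that the rule names are not reported here. Further genes of a list are named where a count or a ratio past 2 falls on them. The Sox9 and IgG libraries of the series were not used here.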

Additional observations from a re-analysis of the deposited data

How the results depend on the processing

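With 1 library per condition no replicate could be left out, and every interval covers counting error only. No paired analysis was possible because each group has 1 library. No test reversed or lost its call under the alternatives run for it. The embryo ratio stayed between 1.19 and 1.4, and its excess over other TSS and over other NIH3T3 peaks between 1.12 and 1.29. The NIH3T3 ratio moved from 5.33 to 2.47 with all tags, 5.76 with all tags but without Gm10800 and Gm10801, 5.69 without these peaks alone, 8.32 with windows of 100 bp, 3.85 with 500 bp, 5.56 when scaled outside peaks, 5.08 and 5.59 with limits of 500 bp and 2 kb, and 6.74 at a p of at most 1e-10. The count of peaks with an embryo ratio of at least 2 moved from 306 to 156 with windows of 100 bp, 187 with 500 bp, 54 at a p of at most 1e-10 and 557 at a ratio of 1.5. A limit of 500 bp left 1224 peaks and a p of at most 1e-10 left 281. The cause of these moves was not tested, except for the 2 piled windows. The alternatives that leave out Gm10800 and Gm10801, leave out the windows of high V5 signal or take all transcripts of protein-coding genes were added after seeing the data. Depth limits single peaks, since 591 held under 3 V5 tags.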

Other observations

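The CCAAT box, which NF-Y binds at many promoters, was present in several of the windows highest in the embryo, and its share was then counted in all peaks at TSS. The motif and the comparison were chosen after seeing those windows, and no test was made. CCAAT on either strand lay within 50 bp of the summit in 64 of the 306 peaks that passed an embryo ratio of 2, 20.9% (16.5 to 25.9), with 12.1% in their flanks, and in 216 of the other 1585, 13.6% (12 to 15.4), with 13.6% in their flanks. Peaks past the ratio lay nearer to the TSS, and by distance the shares were 23.6% (15.2 to 33.8) and 16% (11.9 to 20.8) within 100 bp, 22.9% (13.7 to 34.4) and 9.87% (6.76 to 13.8) between 100 and 250 bp, and 22.2% (13.3 to 33.6) and 13.5% (10.3 to 17.2) between 250 and 500 bp. Between 500 and 1000 bp they were 14.7% (7.56 to 24.7) and 14.5% (11.8 to 17.6). In the 91 peaks that overlapped an embryo peak the share was 30.8% (21.5 to 41.3). Over all TSS it was 13.4%, and among TSS with no NIH3T3 peak it was 18% (16.1 to 20.1) where the embryo ratio passed 2 and 12.6% (12.2 to 13.1) where it did not. The contrast was not particular to CCAAT. The ETS site CCGGAAG was present in 6.21% of the peaks past the ratio and 3.34% of the others, and the Sp1 site GGGCGG in 17.3% and 10.7%. In the peaks that overlapped an embryo peak these sites reached 14.3% and 22%. Over all TSS the ETS site was present in 6.64% and the Sp1 site in 28%, so the Sp1 site was less frequent in each of these sets of peaks. In the flanks the Sp1 site was present in 12.9% for peaks past the ratio, 11.3% for the others and 15.4% for those overlapping an embryo peak. Between peaks past the ratio and the others, some sites went the other way, among them the AP-1 site TGACTCA with 2.29% and 4.98%.

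Of the peaks at TSS without the Bapx1 core, 63 of 1266 (4.98%) contained the AP-1 site TGACTCA, with 1.66% in their flanks and 1.19% over all TSS. The site was not particular to them, since it was present in 3.68% of the peaks at TSS with the core (1.76% in their flanks) and in 5.99% of the other NIH3T3 peaks (1.88%). Some words that resemble the core were also more frequent there than in the flanks: GTACTT was present in 7.66% against 2.41%, TAAGTA in 7.19% against 2.96% and GGAGTG in 12.6% against 5.81%. In the other NIH3T3 peaks, with and without the core, GTACTT was present in 16.7% against 4.05% of the flanks and TAAGTA in 26.1% against 5.55%. The named words were picked for their resemblance to the core from the words of 6 letters with the highest ratio to the flanks, and carry no test. Words unlike the core were also in that list at the peaks without it, among them ACGCAA with 3.16% against 1.22% and TGCGCA with 3.16% against 1.42%.

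Igf2bp2, which encodes an RNA-binding protein of growth control, had the most peaks at TSS of any gene, with 4. They held 14, 16, 12 and 12 NIH3T3 Bapx1 tags against 0, 3, 3 and 0 V5 tags, and 6, 10, 12 and 7 embryo Bapx1 tags against 3, 5, 12 and 7 wildtype tags, and none contained the core. Per1, a component of the circadian clock, had 3 peaks at 3 different TSS, with 14, 11 and 13 Bapx1 against 2, 6 and 2 V5 tags.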
